A study of Mus musculus with 16 samples.

Results

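The difference in ivermectin response between a wild-type line and a P2ry1 knockout line of BetaTC6 cells was measured in 16 libraries, which are all 16 mouse libraries of the series. The interaction was taken for each gene as the ivermectin change in the knockout line minus the ivermectin change in wild type, on the log2 scale. BetaTC6 is a mouse β-cell line derived from an insulinoma, a tumour of insulin-secreting cells, on a C57BL/6 background. Cells of both lines were grown for 3 days in medium with 15% serum, kept in buffer without glucose, and stimulated for 30 min with 20 mM glucose. The 4 groups of 4 libraries were wild type with DMSO (vehicle), wild type with ivermectin, P2ry1 knockout with DMSO and P2ry1 knockout with ivermectin. All 16 libraries thus shared the glucose stimulus, and glucose itself was not varied. The ivermectin dose, how P2ry1 was edited and whether the knockout line is a single clone are not given in the sources used here. The labels do not say that replicates came from separate cultures, so the tests measure the spread between these samples, which may be technical.

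Ivermectin is an antiparasitic drug that acts on ligand-gated channels, among them the ATP-gated channel P2rx4 in mammals. P2ry1 encodes a receptor for ADP that couples to Gq, phospholipase C and release of calcium from intracellular stores. Raised calcium in β-cells activates kinases that act on the transcription factors CREB and SRF, and these switch on early response genes, such as Egr1 and Fos, within minutes and without new protein synthesis. The question that the design sets is whether the transcripts that move with ivermectin move alike in a line labelled as lacking this receptor.

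Library totals ranged from 893088 to 2013242 counts, and the 4 wild-type vehicle libraries, at 893088 to 1064787, were below the 12 others, which started at 1361146. A set of 20 β-cell marker genes took 3.86% to 4.82% of the counts in every library, so β-cell markers were present in all of them. Markers of acinar, endothelial, leukocyte and erythroid cells took at most 0.000777% by median in any group. The ribosomal precursor Rn45s took 2.99% of the counts in replicate 4 of wild-type ivermectin and 0.139% to 0.601% in the 15 others. P2ry1 was read at 91.1, 106, 96.2 and 85.5 CPM (counts scaled to library size with TMM factors) in wild-type vehicle and at 88.0, 88.2, 92.1 and 104 with ivermectin. In the line labelled knockout it was at 83.6, 94.8, 72.8 and 84.8 CPM in vehicle and at 84.2, 92.5, 81.0 and 84.1 with ivermectin. All 4 groups overlapped, so the transcript level did not separate the genotype labels, and a gene-level count does not show a small edit. The log2 interaction of P2ry1 was 0.06 (95% interval -0.22 to 0.34, edgeR quasi-likelihood adjusted p = 1), and the value had the opposite sign with every library thinned to the smallest total (-0.09).

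Of 10820 genes tested, 24 (0.222%) had an interaction with an adjusted p under 0.05, and 553 (5.11%) had an unadjusted p under 0.05. Egr1 was the 1 gene called lower (0.00924%), that is, with a weaker rise in the knockout line. The 23 genes called higher (0.213%) fell with ivermectin in wild type and were not called in the knockout line. Of these 23, 17 belonged to a list of 45 hepatocyte markers, such as Alb and Apoa1, and the others were Scd1, Plg, Phyh, Car3, Fn1 and Apoc1. The wild-type vehicle mean of Plg, Car3 and Apoc1 was 16.8, 21.3 and 17.1 times that of knockout vehicle, beside 14.9 for Alb. The marker list thus does not hold every gene with the pattern of Alb. All 24 were also called for ivermectin in wild type, where 65 genes passed (0.601%), 6 of them higher (0.0555%) and 59 lower (0.545%). No gene was called for ivermectin in the knockout line by edgeR, DESeq2 or limma voom (0%), with 820 (7.58%), 378 and 784 genes at an unadjusted p under 0.05. With no filter on low counts edgeR called 23 genes there. The changes of Egr1 (0.30), Junb (0.46), Nr4a1 (0.49), Alb (0.85) and Apoa1 (1.16) passed, at edgeR adjusted p = 0.0284, 0.00078, 0.0472, 2.23e-10 and 0.0231. These estimates were nearly those of the filtered fit, and it was their SEs that were smaller. The SE of Alb was 0.113 beside 0.42 in the filtered fit, and that of Egr1 0.0727 beside 0.116. In the filtered fit single libraries moved these knockout changes: Alb to 0.14 and Apoa1 to 0.78 without replicate 1 of knockout ivermectin, and Junb to 0.30 and Nr4a1 to 0.31 without replicate 4 of that group. Leaving out a single library gave 48 interaction calls when it was replicate 1 of wild-type ivermectin, 14 when it was replicate 3 of that group, and 8 when it was replicate 1 of knockout ivermectin. With the hepatocyte markers left out 3 genes were called: Egr1, Scd1 and Plg, of which Plg passed the count filter only through wild-type vehicle, where it was high.

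Egr1, a zinc-finger transcription factor and a standard read-out of calcium and MAP kinase signalling, responded to ivermectin in wild type far more than in the knockout line. Its level was 139, 139, 81.2 and 112 CPM in wild-type vehicle and 232, 393, 353 and 391 CPM in wild-type ivermectin. The knockout line had 224, 180, 168 and 180 CPM in vehicle and 246, 230, 224 and 229 CPM with ivermectin. The wild-type groups did not overlap, whereas in the knockout line vehicle replicate 1 reached the lowest ivermectin library. On the log2 scale Egr1 rose by 1.53 in wild-type cells (SE 0.134, edgeR adjusted p = 2.1e-09), and its change in the knockout line was 0.31 (SE 0.116, edgeR adjusted p = 0.594). The interaction was -1.22 (SE 0.179, 95% interval -1.58 to -0.85, edgeR adjusted p = 0.000361). Egr1 also started higher in the knockout line, by 0.67 in vehicle (SE 0.14, edgeR adjusted p = 0.000519), and all 4 knockout vehicle libraries were above all 4 wild-type vehicle libraries. With ivermectin the lines overlapped, because wild-type replicate 1, the lowest of its group, was at the level of the knockout libraries. Per transcript length, on the TPM scale, mean Egr1 went from 61.3 to 174 TPM in wild type and from 92.4 to 108 TPM in the knockout line. The interaction stayed between -1.37 and -1.08 with any library left out, all of them past the threshold. It was -1.12 with Alb as a covariate, which raised its SE to 0.257 and its adjusted p to 1. Alb was itself called for the interaction, so that fit takes out part of the contrast under test, here and for the lists below. Of the rest of the Egr list, the co-repressors Nab1 and Nab2 had interactions of 0.05 and 0.09 and Srf one of -0.25, none past the threshold. Egr2, Egr3 and Egr4 did not pass the count filter, and none was above 5.97 CPM in any library.

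**Figure D1:**
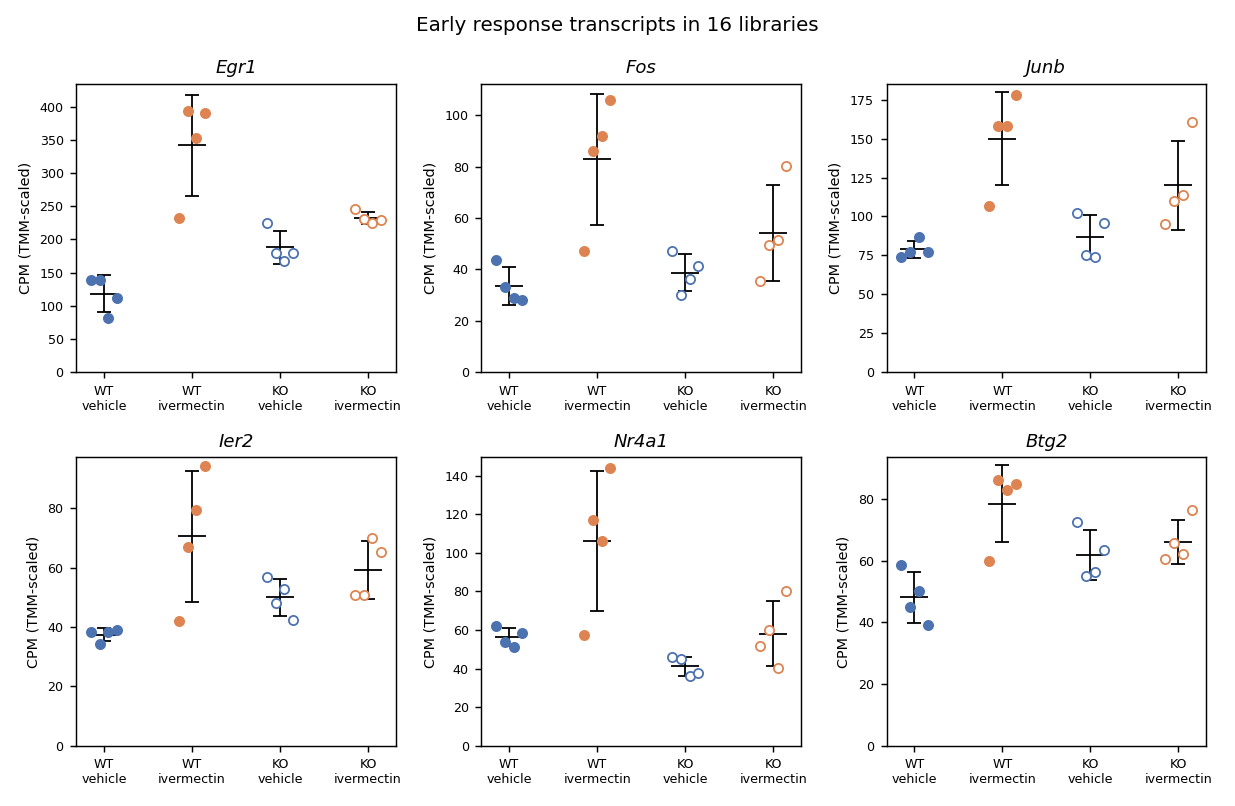
CPM of 6 early response genes in each of 16 libraries, in groups of 4 (WT, wild type; KO, P2ry1 knockout line); the horizontal mark is the group mean and the bar is 1 SD. Egr1 in wild type goes from a mean of 118 to 342 CPM with ivermectin and in the knockout line from 188 to 232 CPM.

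The AP-1 genes encode the Fos, Jun and Maf partners that form dimers on AP-1 sites. All 9 tested members of the 11 listed had an interaction below 0, with a median of -0.44, beside 49.6% of all genes below 0 and a median of 0.00. With Alb as a covariate 8 of the 9 were below 0, with a median of -0.19. The median change was 0.52 in wild type and 0.09 in the knockout line. No AP-1 member was called for the interaction, and 6 had an unadjusted p under 0.05, against 2.22% of all genes in that direction. Fos was at 43.8, 33.3, 28.9 and 27.9 CPM in wild-type vehicle and at 47.0, 86.1, 92.1 and 106 with ivermectin. Knockout cells had Fos at 47.0, 30.1, 36.4 and 41.3 CPM in vehicle and at 35.4, 49.7, 51.6 and 80.2 with ivermectin. The wild-type groups were apart, narrowly at ivermectin replicate 1, and the knockout groups overlapped. In wild-type cells Fos rose by 1.28 (SE 0.227, edgeR adjusted p = 0.000616), and its change in the knockout line was 0.47 (SE 0.201, edgeR adjusted p = 0.645). That knockout change ranged from 0.23 to 0.64 with single libraries left out. The Fos interaction was -0.81 (95% interval -1.43 to -0.18, edgeR adjusted p = 0.847), so the difference between the lines was not past the threshold over all genes. It passed with no filter on low counts (-0.83, edgeR adjusted p = 0.00628) and was -0.19 with Alb as a covariate (edgeR adjusted p = 1).

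Junb was at 74.2, 77.3, 86.6 and 77.1 CPM in wild-type vehicle and at 107, 158, 158 and 178 with ivermectin. Knockout cells had Junb at 102, 75.2, 73.8 and 95.9 CPM in vehicle and at 94.9, 110, 114 and 161 with ivermectin. Every treated wild-type library was above the untreated ones, and in the knockout line ivermectin replicate 1 lay within the vehicle range. Junb rose by 0.91 in wild type (edgeR adjusted p = 0.000192) and its knockout change was 0.47 (edgeR adjusted p = 0.594), with an interaction of -0.44 (95% interval -0.85 to -0.03, edgeR adjusted p = 0.962) that was -0.04 with Alb as a covariate. Fosb, a longer-lived Fos relative, changed by 0.87 and 0.12 in wild type and knockout, Mafk by 0.52 and -0.14, Maff by 0.54 and 0.00, and Jun by 0.38 and 0.09, with no change or interaction of these past the threshold. With no filter on low counts the Fosb interaction passed (-0.77, edgeR adjusted p = 0.0468). Apart from left-out libraries, the alternatives gave -0.89 to -0.32 for Fosb. Jund, an AP-1 member also expressed in resting cells, had the smallest interaction of the list, -0.06. Mafk was already higher in the knockout line in vehicle, by 0.73 (SE 0.2, edgeR adjusted p = 0.00701).

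Among immediate-early and growth-restraining genes, Ier2 encodes a nuclear immediate-early protein, and Btg2 and Tob2 encode antiproliferative adaptors of mRNA deadenylation. Ier2 was at 38.2, 34.2, 38.5 and 39.0 CPM in wild-type vehicle and at 42.0, 66.9, 79.5 and 94.2 with ivermectin. Knockout cells had Ier2 at 56.9, 48.2, 52.9 and 42.4 CPM in vehicle and at 50.9, 50.8, 69.9 and 65.3 with ivermectin. The knockout vehicle libraries all lay above the wild-type vehicle libraries, and with ivermectin the lines overlapped. Ier2 rose by 0.87 in wild type (edgeR adjusted p = 0.00766) and its knockout change was 0.23, giving an interaction of -0.64 (95% interval -1.13 to -0.14, edgeR adjusted p = 0.847).

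Btg2 was at 58.5, 45.0, 50.2 and 39.0 CPM in wild-type vehicle and at 60.0, 86.1, 82.9 and 85.0 with ivermectin. The knockout line had Btg2 at 72.6, 55.2, 56.4 and 63.6 CPM in vehicle and at 60.6, 65.7, 62.1 and 76.3 with ivermectin. Wild-type ivermectin replicate 1 was again the low library of its group, only just above the vehicle range. Btg2 rose by 0.70 in wild type (edgeR adjusted p = 0.0036) and its knockout change was 0.10, an interaction of -0.60 (95% interval -0.98 to -0.22, edgeR adjusted p = 0.438). Without that library the interactions of Btg2 and Ier2 were -0.73 and -0.84 and passed the threshold (edgeR adjusted p = 0.0431 and 0.0348). Neither passed in any other alternative. Apart from left-out libraries, the alternatives gave -0.63 to -0.39 for Btg2 and -0.66 to -0.36 for Ier2. Tob2 had an interaction of -0.80 (95% interval -1.32 to -0.28, edgeR adjusted p = 0.493): its 4 treated wild-type libraries, at 26.8 to 31.8 CPM, were above the 4 treated knockout libraries, at 18.3 to 22.0 CPM. Of 15 tested Ier, Btg, Zfp36 and Klf genes, 12 had an interaction below 0 (median -0.16), with 0 called and 3 lower at an unadjusted p under 0.05 (2.22% of all genes). With Alb as a covariate 8 of the 15 were below 0 (median -0.04), beside 50.6% of all genes.

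Nr4a1, an orphan nuclear receptor and CREB target, differed less between the lines than Egr1 did in its estimate, although this contrast of genes was not tested. Its level was 61.8, 53.8, 51.3 and 58.5 CPM in wild-type vehicle and 57.5, 117, 106 and 144 with ivermectin. The knockout line had 45.9, 45.1, 35.9 and 37.6 CPM in vehicle and 51.5, 60.0, 40.5 and 80.2 with ivermectin. Here both lines overlapped between treatments, through ivermectin replicate 1 in wild type and replicate 3 in the knockout line. Nr4a1 rose by 0.88 in wild type (edgeR adjusted p = 0.0108), its knockout change was 0.50 (edgeR adjusted p = 0.606), and the interaction was -0.38 (95% interval -0.95 to 0.18, edgeR adjusted p = 1). That value turned to 0.29 with Alb as a covariate. Sik1, a kinase that restrains CREB co-activators, had the largest interaction of the CREB list, -1.08 (95% interval -1.98 to -0.18, edgeR adjusted p = 0.926). Its counts were low: 8.55 to 11.2 CPM in wild-type vehicle, 10.4 to 18.4 in wild-type ivermectin, 3.49 to 6.52 in knockout vehicle and 2.86 to 4.53 in knockout ivermectin libraries. The knockout libraries were below the wild-type libraries in both treatments. Of 10 tested Nr4a and CREB target genes, 7 had an interaction below 0 (median -0.05), and none was called. The direction turned with Alb as a covariate (4 of 10 below 0, median 0.09), and on leaving out replicate 3 of wild-type ivermectin 5 of 10 were below 0 (median 0.01). Over all left-out libraries 5 to 9 of the 10 were below 0.

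The dual-specificity phosphatases, which switch MAP kinases off again and are themselves induced by them, had no called interaction. Dusp5 changed by 0.44 in wild type and -0.06 in the knockout line (interaction -0.50, 95% interval -0.85 to -0.16, edgeR adjusted p = 0.617). Dusp4 changed by 0.33 and -0.11 (interaction -0.44, 95% interval -0.74 to -0.13, edgeR adjusted p = 0.638), and it stood higher in the knockout line in vehicle by 0.57 (SE 0.112, edgeR adjusted p = 0.000225). Dusp1 changed by 0.47 in wild type and 0.34 in the knockout line, with an interaction of -0.13 (95% interval -0.51 to 0.25, edgeR adjusted p = 1) that had the opposite sign, 0.01, with Alb as a covariate. Dusp4 and Dusp5 were at -0.06 and -0.38 in that fit, and the differences among these phosphatases were not tested. Over 15 tested feedback genes 10 interactions were below 0 (49.6% of all genes; median -0.13), with 0 called and 3 lower at an unadjusted p under 0.05 (2.22% of all genes), and 8 were below 0 (median -0.01) with Alb as a covariate.

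**Figure D2:**
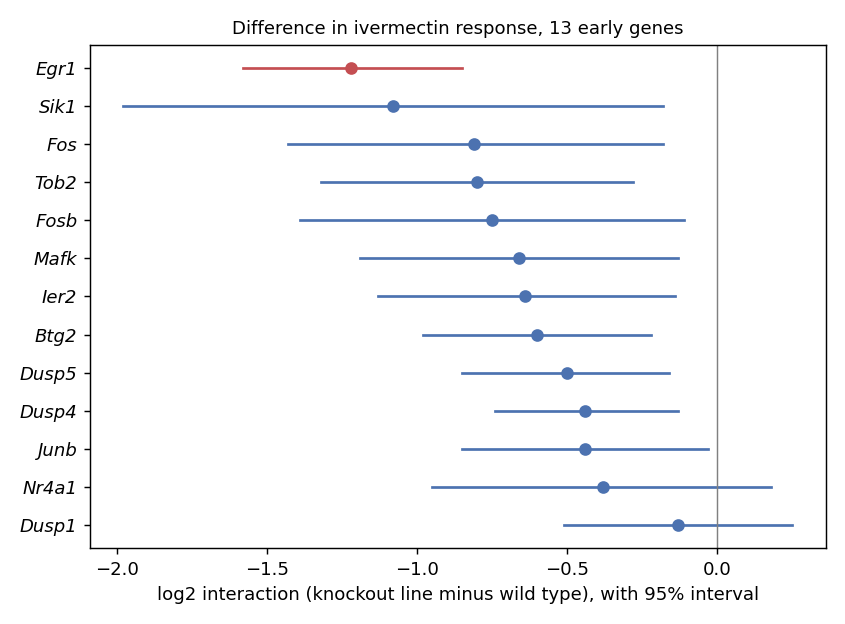
Log2 interaction (knockout line minus wild type) with its 95% interval for 13 early response genes; the red point is past the adjusted threshold and the blue points are not. Egr1 is at -1.22, and the intervals of Nr4a1 and Dusp1 reach above 0.

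Over all 6 early response lists, 75 of 94 genes were tested and 56 of them (74.7%) had an interaction below 0, with a median of -0.15. In wild type 60 of the 75 had a change above 0 (50.1% of all genes did), 6 of them called higher (0.0555% of all genes): Egr1, Fos, Junb, Ier2, Nr4a1 and Btg2. With Alb as a covariate Egr1 alone of the 6 was called, and over 29 alternatives the call was lost in 8 for Nr4a1, 4 for Btg2, 3 for Ier2 and 2 each for Fos and Junb. In the knockout line 44 of the 75 had a change above 0 (50.3% of all genes), and none was called. Of the 28 genes whose wild-type estimate was above 0.3, all 28 had a smaller estimate in the knockout line and 16 still had one above 0. Selection on the wild-type estimate favours that outcome, so it is given as a description. The genes share the same 16 libraries and are not independent replicates. The share below 0 was 65.8% to 78.9% with any library left out and 56% with Alb as a covariate. Within wild-type ivermectin, replicate 1 had the lowest level of all 6 called early genes and the highest hepatocyte-marker share of its group; the part of one in the other was not tested.

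**Figure D3:**
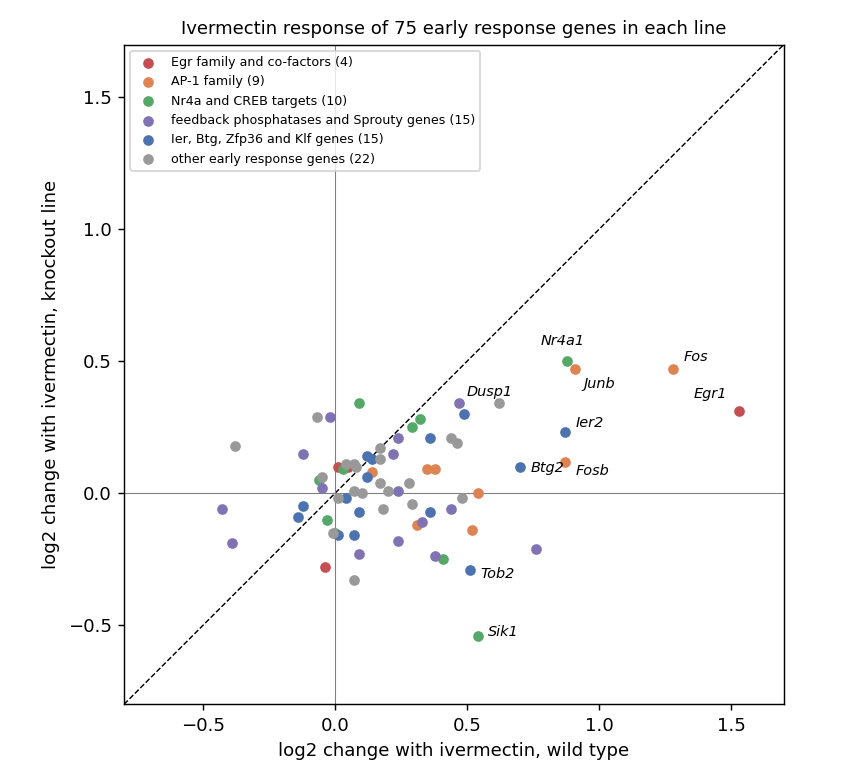
Log2 change with ivermectin in wild type (horizontal) and in the knockout line (vertical) for 75 early response genes, coloured by list with the number tested in parentheses; the dashed line marks equal change. Genes below the dashed line, 56 of 75, have a smaller or more negative change in the knockout line, and Egr1 lies farthest to the right, at 1.53 and 0.31.

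The promoters of the early genes called in wild type are shown because these genes carry the larger wild-type response, and because the cyclic AMP response element (CRE), bound by CREB, is a known element of several of them. RefSeq promoter entries (build GRCm38.p6) matched 4 of the 6 genes, and the 250 bases before the start are printed 5′ to 3′ in gene orientation with the CRE core TGACG, searched on both strands, in capitals. They lie at chr12:85473640-85473889 (plus strand) for Fos, chr8:84978749-84978998 (minus strand) for Junb, chr1:134079156-134079405 (minus strand) for Btg2 and chr15:101266596-101266845 (plus strand) for Nr4a1.
Fos: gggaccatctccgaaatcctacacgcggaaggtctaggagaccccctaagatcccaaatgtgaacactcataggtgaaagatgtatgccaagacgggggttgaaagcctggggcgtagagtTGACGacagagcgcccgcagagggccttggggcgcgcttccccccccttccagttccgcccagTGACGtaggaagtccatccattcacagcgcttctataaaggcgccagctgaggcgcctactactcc
Junb: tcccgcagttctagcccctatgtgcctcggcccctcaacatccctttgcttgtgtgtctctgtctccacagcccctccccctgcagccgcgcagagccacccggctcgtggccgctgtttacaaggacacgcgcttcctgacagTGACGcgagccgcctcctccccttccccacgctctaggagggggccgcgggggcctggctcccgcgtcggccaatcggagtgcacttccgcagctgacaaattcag
Btg2: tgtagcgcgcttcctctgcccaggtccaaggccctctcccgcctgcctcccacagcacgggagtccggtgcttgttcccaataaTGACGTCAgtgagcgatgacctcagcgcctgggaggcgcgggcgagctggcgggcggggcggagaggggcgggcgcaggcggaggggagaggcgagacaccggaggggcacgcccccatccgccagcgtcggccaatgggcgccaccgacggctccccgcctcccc
Nr4a1: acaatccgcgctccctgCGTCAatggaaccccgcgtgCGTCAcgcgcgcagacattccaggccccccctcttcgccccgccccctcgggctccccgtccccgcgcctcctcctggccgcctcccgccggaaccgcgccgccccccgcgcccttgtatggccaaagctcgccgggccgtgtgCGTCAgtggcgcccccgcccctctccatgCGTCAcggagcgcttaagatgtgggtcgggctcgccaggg
All 4 windows held the core: 2 matches in Fos, 1 in Junb, 2 in Btg2 and 4 in Nr4a1. The pair in Btg2 overlapped as 1 full palindrome, TGACGTCA, from base 166 to base 159 before the start. No CArG box, the SRF element, was found in these 4 windows. Only the 250 bases were searched, so an element farther upstream would be missed. Egr1 and Ier2 had no promoter entry and were not searched. Among 70 promoter entries of 59 matched early response genes, 50% held the core on either strand, beside 27.8% of 10084 entries of all tested genes and 17.8% of all 32851 entries. The full palindrome stood in 10%, 2.79% and 1.55% of the same sets, and the CArG box in 4.29%, 1.13% and 1.47%. The early response lists include known CREB targets, so the choice of genes favours a larger CRE share in them. A match of letters is a description and does not show binding.

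The 23 genes with a higher interaction had their highest group mean in wild-type vehicle, without exception. Alb, the main plasma protein made by hepatocytes, was at 923, 328, 380 and 685 CPM in wild-type vehicle and at 172, 64.1, 57.7 and 112 with ivermectin. In knockout cells Alb was at 52.3, 17.1, 36.4 and 49.8 CPM in vehicle and at 144, 28.0, 71.2 and 29.8 with ivermectin. The 4 wild-type vehicle libraries stood above all 12 others, the ivermectin groups of the lines overlapped, and knockout vehicle was lowest. The knockout change of Alb rested on replicate 1 of knockout ivermectin, at 144 CPM, and was 0.14 without it, and the median knockout change of the tested hepatocyte markers went from 0.54 to 0.06. Alb fell by 2.48 in wild-type cells (SE 0.293, edgeR adjusted p = 1.32e-06), its change in the knockout line was 0.86 (SE 0.42, edgeR adjusted p = 0.654), and the interaction was 3.34 (SE 0.513, 95% interval 2.3 to 4.38, edgeR adjusted p = 0.000501). The knockout line differed from wild type in vehicle Alb by -3.91 (SE 0.334, edgeR adjusted p = 3.28e-11).

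Apoa1, the main protein of high-density lipoprotein, was at 117, 48.9, 52.4 and 92.0 CPM in wild-type vehicle and at 20.0, 6.58, 9.94 and 10.7 with ivermectin. The knockout line had 4.07, 5.52, 3.49 and 8.48 CPM in vehicle and 19.8, 8.57, 11.8 and 7.76 with ivermectin. The ivermectin groups of the lines covered nearly the same range. Its interaction was 3.83 (SE 0.493, edgeR adjusted p = 4.02e-05), the smallest p of the comparison. Trf, the plasma iron carrier transferrin, had its group means in the same order as Alb, with 206, 71.4, 64.1 and 147 CPM in wild-type vehicle and 3.51 to 36.5 CPM in the 12 others. The other called hepatocyte markers were the apolipoproteins Apoe (2.57) and Apoa2 (2.05), the drug-metabolising enzymes Cyp2e1 (3.61) and Cyp3a11 (3.81), the fibrinogen chains Fgb (3.82) and Fgg (3.66), complement C3 (3.40), the kininogen Kng1 (3.89), Ahsg (3.09), Mup3 (3.68), the carboxylesterase Ces3a (5.49) and the serpins Serpina3k (4.40), Serpina1b (2.04) and Serpina1c (2.71), each value a log2 interaction. Serpina1b and Serpina1c, and Mup3, belong to families of near-identical copies, so how reads were split among copies is uncertain. Plg, plasminogen, had an interaction of 4.32 (SE 0.766, edgeR adjusted p = 0.0024), although its knockout vehicle libraries held almost no reads (0.00 to 2.49 CPM). Car3 (3.34) and Apoc1 (4.16) were likewise near 0 in knockout vehicle, at 1.06 to 2.01 and 0.502 to 1.06 CPM. Ces3a was near 0 in 3 groups, with 0 to 2 counts per library in wild-type ivermectin, 1 to 2 in knockout vehicle and 1 to 6 in knockout ivermectin, so its fitted value of 5.49 depends on the model and its size is not established.

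**Figure D4:**
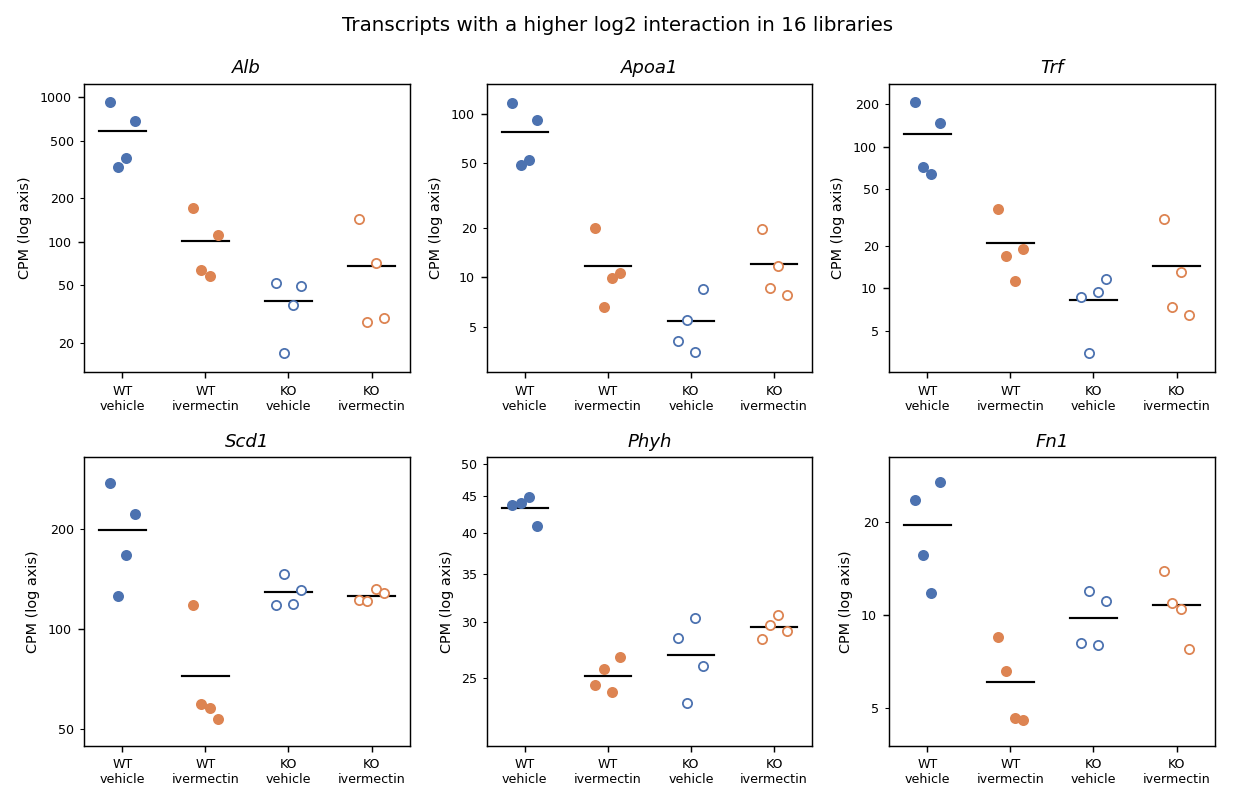
CPM on a log axis for 6 of the 23 genes with a called higher interaction, in each of 16 libraries (WT, wild type; KO, P2ry1 knockout line); the horizontal line is the group mean. Alb, Apoa1 and Trf are higher in the 4 wild-type vehicle libraries than in the 12 others, whereas in Scd1 and Fn1 the wild-type vehicle libraries overlap those of the knockout line.

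The 45 hepatocyte markers together took 0.413%, 0.188%, 0.208% and 0.327% of the counts in the wild-type vehicle libraries. Their share was 0.101% to 0.131% in wild-type ivermectin, 0.0942% to 0.123% in knockout vehicle and 0.106% to 0.146% in knockout ivermectin libraries. The wild-type vehicle libraries were thus above the rest and differed 2.20-fold among themselves, and in all 4 groups replicate 1 had the highest and replicate 2 the lowest share. Skeletal muscle markers, although near the limit of detection, were also highest in wild-type vehicle by median (0.00318%, beside 0.000555% to 0.000979% in the other groups). The same held for markers of endothelial cells (0.000688%, beside 0.000107% to 0.000361%), leukocytes (0.000777%, beside 0.000309% to 0.000587%) and erythroid cells (0.000363%, beside at most 8.83e-05%). Fibroblast markers were highest there by median (0.00152%, beside 0.000799% to 0.0014%), but their range overlapped that of knockout ivermectin. Pancreatic acinar markers went the other way, lowest in wild-type vehicle by median (0.000329%, beside 0.000437% to 0.000576%). All of these lists rested on few reads. Of the 45 hepatocyte markers, none was at 0 in all 16 libraries, 38 were tested, and 22 would have passed the count filter without the wild-type vehicle libraries. Of the 23 genes called higher, 15 would have passed it in that way, so the remaining 8 (Serpina3k, Plg, Fgb, Mup3, Kng1, Car3, Ces3a and Apoc1) were tested only through the group in which they were high and had to differ. In bulk libraries such as these, fewer cells of a type and less RNA per cell cannot be told apart, and the part that RNA of another cell type has in the interaction was not tested beyond the values given here. With log2 Alb as a covariate no gene was called for the interaction by edgeR, with 374 at an unadjusted p under 0.05. Alb was itself called for the interaction, with its wild-type vehicle libraries above all others, so this covariate overlaps with the contrast. That fit therefore cannot decide whether the calls rest on hepatocyte RNA.

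Scd1, the enzyme that makes monounsaturated fatty acids, was the 1 called member of 28 tested sterol and fatty acid synthesis genes (0.222% of all genes were called). It was at 275, 126, 167 and 222 CPM in wild-type vehicle and at 118, 59.2, 57.7 and 53.6 with ivermectin. Knockout cells had Scd1 at 118, 146, 119 and 131 CPM in vehicle and at 122, 121, 132 and 128 with ivermectin. Wild-type vehicle replicate 2 lay within the knockout range, and the treated wild-type libraries were all below the treated knockout libraries. Scd1 fell by 1.40 in wild-type cells (SE 0.174, edgeR adjusted p = 2.35e-06), its knockout change was -0.04 (SE 0.155, edgeR adjusted p = 0.976), and the interaction was 1.36 (SE 0.234, 95% interval 0.89 to 1.84, edgeR adjusted p = 0.00222). Within both wild-type groups, replicate 1 had the highest Scd1 as well as the highest hepatocyte-marker share. The interaction was 0.80 with Alb as a covariate (edgeR adjusted p = 1) and 1.41 by DESeq2 (adjusted p = 0.0861). Elovl6, which extends the same fatty acids, had an interaction of the opposite sign, -0.60 (SE 0.213, edgeR adjusted p = 0.67), and the 28 genes had a median of -0.04, with 12 above 0 and 16 below.

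Phyh, a peroxisomal enzyme of branched fatty acid breakdown, was at 43.8, 44.0, 44.9 and 40.9 CPM in wild-type vehicle and at 24.5, 25.8, 23.9 and 26.8 with ivermectin. The knockout line had Phyh at 28.5, 23.1, 30.4 and 26.0 CPM in vehicle and at 28.4, 29.7, 30.7 and 29.1 with ivermectin. Unlike Alb, whose wild-type vehicle libraries differed 2.82-fold, the 4 wild-type vehicle values of Phyh differed 1.1-fold. Phyh fell by 0.78 in wild type (edgeR adjusted p = 0.000808), its knockout change was 0.13, and the interaction was 0.91 (SE 0.193, edgeR adjusted p = 0.0211). The size changed little under the alternatives (0.84 to 0.98), but the call was lost in 9 of 28, among them DESeq2 (adjusted p = 0.252) and thinning to the smallest total (0.85, edgeR adjusted p = 0.424). Fn1, the matrix protein fibronectin, was at 23.6, 15.6, 11.8 and 26.9 CPM in wild-type vehicle and 4.59 to 8.5 with ivermectin, and at 7.98 to 12 and 7.76 to 13.9 CPM in the knockout line. Its interaction was 1.77 (SE 0.392, edgeR adjusted p = 0.0324), the lines overlapped in both treatments, and the call was lost in 13 of 28 alternatives. The calls of Apoc1, Car3 and Serpina1c were lost in 15 of 27, 14 of 28 and 13 of 27, and that of Serpina1c turned in a further alternative. C3 and Ahsg lost theirs in 9 of 27 each and Ces3a in 9 of 26, and C3 turned in a further alternative. For Apoa2 and Fgg the call was lost in 6 of 27 each, and for Kng1 in 6 of 26.

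Some genes stood just outside the threshold. Dgkq, a diacylglycerol kinase that removes the lipid messenger made by phospholipase C, was at 16.9, 19.6, 19.2 and 22.3 CPM in wild-type vehicle and at 31.0, 27.4, 22.5 and 28.3 with ivermectin. Knockout cells had Dgkq at 23.8, 36.6, 26.4 and 31.8 CPM in vehicle and at 13.9, 16.6, 23.5 and 23.9 with ivermectin. The wild-type groups were apart and the knockout groups met at 23.8 and 23.9 CPM, with opposite directions of the estimates: 0.49 and -0.63. The interaction was -1.12 (SE 0.265, edgeR adjusted p = 0.0588). Pygl, the liver form of glycogen phosphorylase, had an interaction of 1.29 (SE 0.308, edgeR adjusted p = 0.0634) and was highest in wild-type vehicle by mean, at 19.9 CPM.

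The lists for the signalling path between receptor and nucleus held no called interaction. Of 18 purinergic receptors 5 were tested: P2ry1, P2ry6 (-0.21), Adora1 (-0.18), Adora2b (0.94) and P2rx4 (0.06), all at an edgeR adjusted p of 1. P2rx4, the channel on which ivermectin acts, was at 24.7 to 32.1 CPM in wild-type vehicle, 24.5 to 30.5 in wild-type ivermectin, 22.7 to 38.7 in knockout vehicle and 30.7 to 32.7 in knockout ivermectin libraries. Adora2b rested on 1 to 13 counts per library, and the sign of P2rx4 and P2ry6 changed under some alternatives. The 20 tested Gq, phospholipase C and calcium store genes had a median of -0.01 with 11 below 0, the 29 MAP kinase and CREB signalling genes a median of -0.01 with 15 below 0, and the 16 known ivermectin targets a median of -0.02 with 8 below 0. In these 3 lists 1 gene had an unadjusted p under 0.05 (5.11% of all genes did), Elk1, an SRF partner (-0.41, SE 0.198, edgeR adjusted p = 0.962).

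Genes of β-cell function showed no called difference in drug response either. The insulin genes Ins1 and Ins2 overlapped among all 4 groups, with Ins2 at 17300 to 25600 CPM. Of 17 β-cell identity factors 12 had an interaction below 0 (median -0.03), of 20 channel and glucose sensing genes 15 (median -0.08) and of 21 granule exocytosis genes 13 (median -0.07), beside 49.6% of all genes. Of 17 islet hormone, granin and processing genes 6 were below 0 (median 0.05), and of 19 tested β-cell markers 8 (median 0.02), so the β-cell lists did not lean one way. The identity factor Rfx3 was at -0.57 (SE 0.278) and the granule protein Syt5 at -0.53 (SE 0.24), both at an edgeR adjusted p of 0.962. The 18 clock genes (median -0.03), 28 unfolded protein response genes (0.00), 21 heat shock and oxidative stress genes (0.06), 34 cell cycle genes (0.01) and 33 glycolysis and TCA cycle genes (0.02) held 0 called genes among them. Hspe1, a mitochondrial chaperonin, had the smallest p of these, at 0.39 (SE 0.129, edgeR adjusted p = 0.572): its 4 treated knockout libraries, at 146 to 173 CPM, were above all 4 vehicle libraries of that line, at 120 to 138. Txnip, a glucose-induced thioredoxin inhibitor, changed by -0.42 in wild type and -0.02 in the knockout line (interaction 0.40, SE 0.158, edgeR adjusted p = 0.874).

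**Figure D5:**
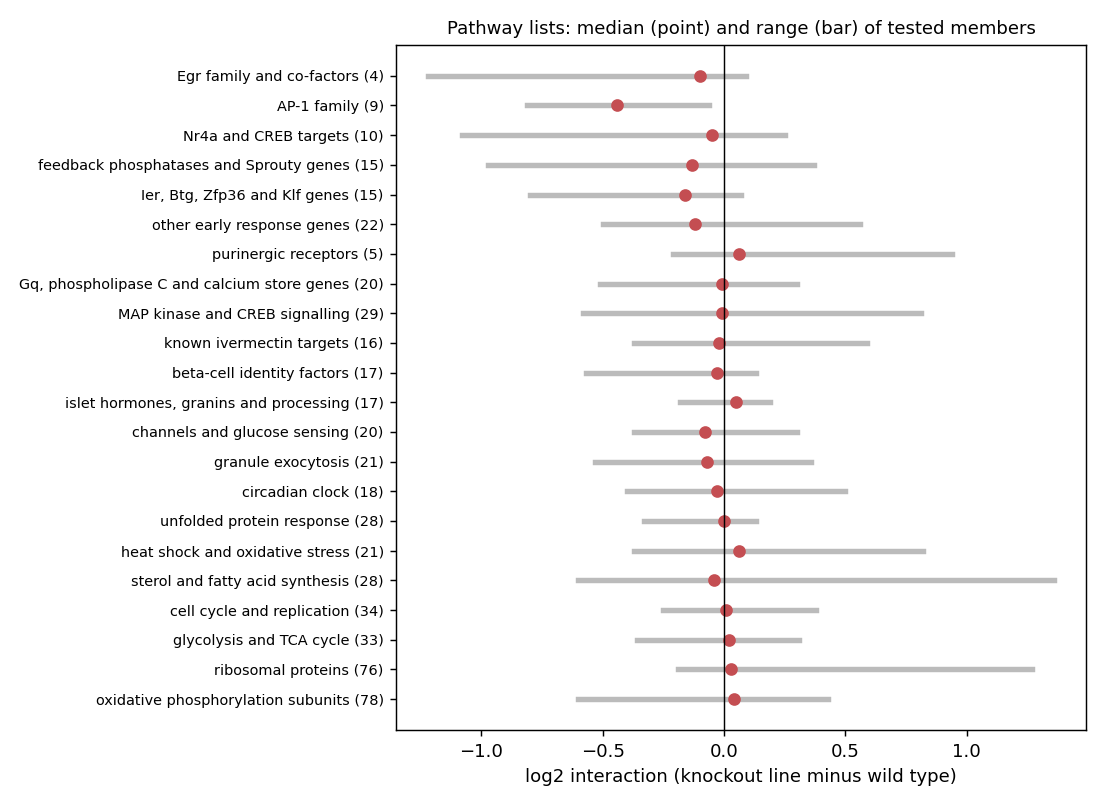
Log2 interaction (knockout line minus wild type) for 22 pathway lists, with the number of tested members in parentheses; the point is the median and the bar spans the lowest to the highest member. The AP-1 family, at -0.44, has the median farthest from 0, and the remaining medians lie between -0.16 and 0.06.

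Most ribosomal protein and oxidative phosphorylation genes had an estimate above 0 in both lines, and none was called by edgeR for ivermectin in either. Of 76 ribosomal protein genes, 67 had an estimate above 0 in wild type (median 0.08) and 72 in the knockout line (median 0.12), with 5 and 24 at an unadjusted p under 0.05 in that direction (2.28% and 4.03% of all genes). The knockout median was 0.06 without replicate 2 of knockout vehicle and 0.07 without replicate 3 of knockout ivermectin, and the wild-type median was 0.03 without replicate 4 of wild-type ivermectin and 0.13 without replicate 1 of that group. Their interaction was above 0 for 51 of 76 (50.4% of all genes) with a median of 0.03, and the median turned below 0 on leaving out replicate 1 of either wild-type group (-0.01 each), replicate 2 of knockout vehicle (-0.04) or replicate 3 of knockout ivermectin (-0.01), and with Alb as a covariate (-0.09). Of 78 oxidative phosphorylation genes, 61 had an estimate above 0 in wild type and 63 in the knockout line, 4 and 17 of them at an unadjusted p under 0.05, and 48 had an interaction above 0 (median 0.04). That direction turned as well, with 45 of 78 below 0 (median -0.02) on leaving out replicate 2 of knockout vehicle and 53 of 78 (median -0.07) with Alb as a covariate. Transcript length moved with these values: over 9808 genes matched to a length (90.6%), the median knockout change was 0.072 in the shortest of 5 length bins and -0.06 in the longest, and the median interaction was 0.045 and -0.054. Across genes, which are not independent replicates, Spearman's rho between length and the change was -0.28 in the knockout line, -0.0486 in wild type and -0.167 for the interaction. The part of length in the list values was not tested.

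Averaged over the lines, 6 genes (0.0555%) were called for ivermectin, 4 higher (0.037%) and 2 lower (0.0185%): Egr1 (0.92), Fos (0.88), Junb (0.69) and Nr4a1 (0.69) rose, and Scd1 (-0.72) was among those that fell. The call of Nr4a1 was lost in 13 of 29 alternatives, those of Fos and Scd1 in 3 each, that of Junb in 2 and that of Egr1 in 1. Egr1 and Scd1 were thus called both for this mean and for the difference between the lines. Across genes, the wild-type and knockout changes, which share no library, had a Pearson r of 0.327 and a Spearman rho of 0.226 over the 75 early response genes, and of -0.117 and 0.0654 over all 10820 genes. The starting point differed as well, since 2240 genes (20.7%) were called between the lines in vehicle, among them 16 of the 75 early genes, 9 higher (9.86% of all genes) and 7 lower (10.8%) in the knockout line.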

How the data were processed

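RNA was measured in 16 libraries of BetaTC6 cells. Per the labels' protocols, library preparation started from 125 ng of RNA and used poly(A) enrichment, a directional kit and 11 amplification cycles, and read in pairs of 42 nucleotides. Per the submitters' processing notes, bcl2fastq, STAR 2.7.2b, RSEM 1.3.3 and DESeq2 1.32.0 were used with build mm10. The authors deposited a table of whole-number counts for 23329 genes, and every value equalled the deposited RSEM expected count rounded down. The TPM values, scaled by transcript length, are also the authors' RSEM output. The other deposited tables of the series were not used here. A gene called in the mean response is not reported here.

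Genes passed edgeR's filterByExpr (minimum count 10, minimum total 15), which left 10820. The tests used edgeR 4.0.16 (R 4.3.3) with TMM scaling and quasi-likelihood F tests over all 16 libraries with 1 mean per group, and Benjamini-Hochberg adjustment with a threshold of 0.05. Standard errors came from the log2 change and its F statistic. CPM are scaled with TMM factors, and shares of marker lists are of total counts. The median SE of the interaction was 0.198, and it was 0.43 at 2 to 4 log2 CPM and 0.0894 over 8, so low genes are less certain. At these totals a count of 0 allows 1.49 to 3.36 CPM, taking 3 counts as the limit, which covers counting error only. Replicate pairs differed beyond counting noise, with a chi-squared per degree of freedom of 1.16 to 7.36. The 3 pairs with wild-type ivermectin replicate 4 had 5.46 to 7.36, and the 21 others at most 2.27. The test was tested on simulated data with known changes. The members, gene lists and marker lists were chosen with earlier results of these data known. Genes were named by a rule: P2ry1, purinergic receptors, genes past the threshold in the interaction or the mean response, early response genes past the threshold under ivermectin or among the 10 smallest interaction p-values, 12 further genes with small interaction p-values, and the 2 smallest of each other list. Nab1, Nab2, Srf, Egr2, Egr3, Egr4, Maff, Jun, Jund, Dusp1, Ins1, Ins2 and Rn45s were named outside that rule, after their values were seen. Transcript lengths came from GENCODE M21. The alternatives were the rounded expected counts, other scaling factors (RLE, upper quartile), no filter, a mean of at least 50 counts, DESeq2 1.42.0, limma 3.58.1 (voom with quality weights), a replicate block, leaving out each library, thinning, a 1.5-fold threshold, hepatocyte markers left out, Rn45s and Lars2 left out, and Alb as a covariate.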

Additional observations from a re-analysis of the deposited data

Results flagged for a closer look

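A test of the interaction itself separated the ivermectin response of the lines for 24 genes (edgeR adjusted p under the threshold). Of these, Egr1 was at -1.22, and the others were above 0 on the log2 scale, knockout line minus wild type. Serpina3k, Plg, Fgb, Mup3, Kng1, Car3, Ces3a and Apoc1 passed the count filter only through wild-type vehicle, where they were high, so their calls carry no weight as a separation of the lines. Among plasma proteins and apolipoproteins the values were Apoa1 3.83, Alb 3.34, Apoe 2.57, Apoa2 2.05, Apoc1 4.16, Trf 3.32, Ahsg 3.09, Kng1 3.89, Plg 4.32, Fgb 3.82, Fgg 3.66, C3 3.40 and Fn1 1.77. For serpins, enzymes and other genes they were Serpina3k 4.40, Serpina1b 2.04, Serpina1c 2.71, Cyp2e1 3.61, Cyp3a11 3.81, Ces3a 5.49, Mup3 3.68, Car3 3.34, Scd1 1.36 and Phyh 0.91.

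A library stood far from the other 3 of its group in 14 of 244 groups of 4 values examined, where about 12 are given by chance at 1 in 20. In wild-type vehicle these were Dusp1 in replicate 1 (58.5 CPM, the others 43.7 to 45.0), Fosb in replicate 4 (40.9 CPM, the others 27.0 to 28.9) and Ier2 in replicate 2 (34.2 CPM, the others 38.2 to 39.0). In wild-type ivermectin, replicate 1 was low for Btg2 (60.0 CPM, the others 82.9 to 86.1) and Dusp4 (78.5 CPM, the others 102 to 106), and high for Fgb (14 CPM, the others 2.74 to 3.98) and Scd1 (118 CPM, the others 53.6 to 59.2). The share of Rn45s was 2.99% in replicate 4 of wild-type ivermectin (the others 0.143% to 0.167%) and 0.367% in knockout ivermectin replicate 4 (the others 0.146% to 0.181%). In knockout vehicle, Ces3a was high in replicate 4 (1.06 CPM, the others 0.499 to 0.581) and Fgg low in replicate 1 (0.581 CPM, the others 3.18 to 3.51). These Ces3a values all lie below the 1.49 to 1.72 CPM that a count of 0 allows in that group, so that flag carries no weight. In knockout ivermectin, Ces3a (3.22 CPM, the others 0.571 to 0.653) and Mup3 (8.04 CPM, the others 2.29 to 3.23) were high in replicate 1 and Dusp1 (58.9 CPM, the others 42.8 to 44.5) in replicate 4.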

How the results depend on the processing

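Of 86 gene values, 75 kept their direction under every alternative run, and 10 of the 17 reversals came with Alb as a covariate, 3 of them of Alb itself, whose value that fit sets near 0 by construction. The count of called interactions, 24, was 82 with no filter, 4 with a mean of at least 50 counts, 11 after thinning, 12 with the 1.5-fold threshold, 3 without hepatocyte markers and 0 with Alb as a covariate (374 at an unadjusted p under 0.05, by edgeR). In wild type the count, 65, was 140 with no filter, 7 with a mean of at least 50 counts, 42 after thinning, 30 without hepatocyte markers and 1 with Alb as a covariate. In the knockout line it was 23 with no filter. Between the lines in vehicle it was 234 with the 1.5-fold threshold and 403 with Alb as a covariate. The mean response had 82 calls with no filter, 3 by DESeq2, 0 with the 1.5-fold threshold (27 unadjusted, by edgeR) and 1 with Alb as a covariate. With each library left out in turn, counts were 8 to 48 for the interaction, 55 to 100 for wild type and 5 to 26 for the mean response; the highest came without wild-type ivermectin replicate 1 in each, and the mean response had 11 calls without knockout ivermectin replicate 1. Egr1 lost its call with the 1.5-fold threshold (adjusted p = 0.0707) and Alb as a covariate, Scd1 with these and DESeq2. Alb as a covariate gave reversed interactions for Alb (-0.01), C3 (-0.25), Dusp1 (0.01), Nr4a1 (0.29), P2rx4 (0.00), P2ry6 (0.08), Serpina1c (-0.43) and Trf (-0.08), and Alb changes of 0.02 in wild type and 0.01 between the lines. Thinning gave -0.09 for P2ry1 and 0.14 for P2ry6. Without single libraries, interactions ranged from -0.05 to 0.18 for P2rx4, -0.01 to 0.13 for P2ry1 and -0.40 to 0.01 for P2ry6. Depth limits low genes, since the SE of the interaction was larger at low counts. The cause of these shifts was not tested, except that fewer genes or libraries enter where some are left out.

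Over 24 same-numbered pairs of libraries from different groups, deviations from the group means correlated at -0.057 to 0.14, and 2 pairs were above the 0.1 required of every pair. The labels do not say that a number marks a shared culture or day, so the main results have no block. As a hint from the data, 9 of 16 libraries correlated best with one of their own number, and the hepatocyte-marker share followed the number at its highest and lowest in every group. With the replicate block the interaction had 47 calls and the mean response 19.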
